A study of Mus musculus with 4 samples.

Results

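The genes of the proteasome were described across germ cell stages, somatic cells and genotypes in single cell RNA-seq of mouse testis. Members were chosen by spelling alone, as every gene symbol that starts with PSMA, PSMB, PSMC, PSMD, PSME, PSMF or PSMG followed by a digit and that is not marked as a pseudogene. The rule found 49 of the 25824 symbols listed in the 4 count tables, and 48 of the 49 were listed in the table of WT replicate 2. One symbol, PSMC3IP, met the spelling rule but encodes a partner of the meiotic recombinases and no proteasome subunit, so 48 genes were left as proteasome genes. These were 7 alpha and 7 beta subunits of the core, the testis alpha subunit PSMA8, 3 immunoproteasome beta subunits, 6 ATPases and 14 non-ATPase subunits or chaperones of the 19S cap, 5 genes for activators, the inhibitor PSMF1 and 4 assembly chaperones. Symbols are given in capitals, as the tables write them.

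The proteasome is the barrel-shaped protease that degrades proteins tagged with ubiquitin. Its core is built of stacked rings of alpha and beta subunits. The 19S cap, which holds the PSMC ATPases and the PSMD subunits, binds and unfolds the substrate. The activators PSME1 and PSME2 (PA28 alpha and beta), PSME3 (PA28 gamma) and PSME4 (PA200) bind the same ends of the core, whereas PSMF1 (PI31) was described as an inhibitor of it. In the testis PSMA8 takes the place of PSMA7 in the proteasome of spermatocytes and spermatids, and PSME4 is known for the degradation of acetylated histones in spermatids. PSMB8, PSMB9 and PSMB10 replace the catalytic beta subunits in immune cells.

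Each genotype had 2 mice, and each mouse gave a single library of 3′ ends made with ddSEQ droplets from dissociated testes. The controls are labelled Wild Type with Ctcf wt/wt, and the mutants, Ctcf-cKO, carry Stra8-iCre with a floxed and a deleted Ctcf allele (Stra8-iCre-Ctcf f/Δ). All were labelled C56BL/6J and 15 weeks old. Stra8-iCre drives recombination in germ cells that are entering meiosis, so undifferentiated spermatogonia and somatic cells keep the floxed allele and only the germ line from that point is a model of the loss of CTCF. By the study's methods the controls were littermates, red blood cells were washed off, and filtrates of 2 tubes were pooled for the Ctcf-cKO preparation.

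The libraries differed in depth and content in a way that runs with genotype. The WT libraries held 6701235 and 4859455 counts, and the Ctcf-cKO libraries 2652665 and 1593546. CTCF itself had 110 and 49 counts over all barcodes of the WT libraries, and 4 and 7 in those of the Ctcf-cKO mice. Within the classes its counts were few. They were 0, 15, 0 and 0 in the spermatocyte-like cells (WT replicates first). In the mid spermatid-like cells they were 0, 0, 0 and 4, against the labels, and in the late 6, 0, 0 and 0. These counts were too few to show the loss within those classes. The early cells had 6, 6, 0 and 0 and the unnamed clusters 8, 3, 0 and 0. In both sets each WT mouse had counts and neither Ctcf-cKO mouse did. In the early cells the Ctcf-cKO sums came from 5 cells and 1 cell, with 100145 and 20678 counts in all, against 275644 and 411306 in WT. The counts of 0 there were thus also too few to show the loss. Filters left 811 cells, 96 and 241 of the WT replicates 1 and 2 and 228 and 246 of the Ctcf-cKO replicates 1 and 3, and 1 barcode was a cell in 2 libraries. Clusters were named only from marker genes, without the proteasome genes, as 63 spermatocyte-like, 54 early, 152 mid and 120 late spermatid-like cells and 155 somatic-like cells (91 Leydig-like, 38 macrophage-like and 26 fibroblast-like). No cluster was spermatogonia-like or Sertoli-like, and 267 cells lay in 2 clusters that stayed unnamed. The late class is the cluster with markers of elongating spermatids, among them the protamines. Barcodes with under 200 genes were summed as free RNA. Within each class the counts of a mouse were added up and scaled to CPM, the count per 1000000 counts of that sum, given in the order WT replicate 1, WT replicate 2, Ctcf-cKO replicate 1 and Ctcf-cKO replicate 3. Since CPM are relative, a gene's CPM also moves with the rest of the RNA in the class. The early class had 1 cell in Ctcf-cKO replicate 3 and was not tested. The spermatocyte-like class held 5 cells of WT replicate 1, the mid class 7 of it, and the somatic class 6 of WT replicate 2, and these sums rest on few cells.

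PSMA8, the testis alpha subunit, was concentrated in the spermatocyte-like cells. Its level was 256, 172, 148 and 110.3 CPM there, from 33, 91, 22 and 4 counts. In the mid spermatid-like cells it was 6.32, 33.9, 8.30 and 0 CPM, in the late 0, 0, 16 and 0 CPM, and in the somatic-like cells 0, 0, 8.78 and 0 CPM. Every mouse was thus highest in the spermatocyte-like cells, with no overlap between that class and any other class named here. The limit that a count of 0 allows, taken as 3 counts of the class sum, was 3.87 and 17.8 CPM for the late cells of the WT mice and 37.5 and 57.9 CPM for their somatic-like cells. Of the 63 spermatocyte-like cells 24 had a count of PSMA8 (38.1%), against 1 of the 155 somatic-like cells (0.645%), which should lack the gene. The median depth was 10035 counts per cell in the first class and 3708 in the second.

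The fall of PSMA8 from the spermatocyte-like to the mid spermatid-like cells passed the test. The log2 fold change was -3.91 (SE 1.08, adjusted p = 0.022 from edgeR, quasi-likelihood, with Benjamini-Hochberg adjustment over 5208 genes). The call was lost when WT replicate 1, WT replicate 2 or Ctcf-cKO replicate 1 was left out, with log2 fold changes of -3.30, -5.15 and -3.98. Between the mean of the germ-like classes and the somatic-like class PSMA8 differed by a log2 fold change of 2.53 (SE 1.26), which did not pass (adjusted p = 0.22). In the free RNA the level was 133, 32.2, 14.8 and 12.0 CPM, so that both WT libraries lay above both Ctcf-cKO libraries (log2 fold change -2.01, adjusted p = 0.12). There PSMA8 passed the filter on low counts through the WT libraries alone, so this value is a description.

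PSMA7, the paralog that PSMA8 replaces, was highest in the somatic-like cells among the named classes in every mouse except WT replicate 2. It had 0, 26.4, 101 and 27.6 CPM in the spermatocyte-like cells, 0, 9.11, 27.7 and 0 CPM in the mid, 1.29, 0, 47.9 and 76.7 CPM in the late, and 50.0, 19.3, 266 and 152 CPM in the somatic-like cells. Both Ctcf-cKO mice lay above both WT mice in the late and somatic-like classes, where the WT mice had 1 and 0 counts and 4 and 1 counts. In the mid class the mice overlapped. In the spermatocyte-like cells the counts were 0, 14, 15 and 1. The value of Ctcf-cKO replicate 3 there rests on 1 count, where 3 counts would be 82.7 CPM, so no side is given. Of the counts of both paralogs together, PSMA8 held 83.3% in the spermatocyte-like cells (150 of 180 counts, exact 95% interval 77.1% to 88.5%). Its share was 68.7% in the mid (56.2% to 79.4%), 14.3% in the late (28 counts, 4.03% to 32.7%) and 2.16% in the somatic-like cells (0.447% to 6.18%). The intervals cover counting error only, since counts of a molecule are not independent. By mouse the share in the spermatocyte-like cells was 100%, 86.7%, 59.5% and 80%, so the pooled value hides a spread over mice that is wider than its interval. In the mid cells 52 of the 67 counts came from WT replicate 2, where the share was 78.8%, and Ctcf-cKO replicate 1 had 23.1% of 13 counts. In the late cells the counts of both paralogs were 1, 0, 16 and 11, and in the somatic-like cells 4, 1, 94 and 40. The pooled shares of these classes thus come almost wholly from the Ctcf-cKO mice, and the WT mice give no usable late share. In the free RNA the share was 87.5% and 65.5% in the WT libraries and 12.9% and 9.68% in the Ctcf-cKO libraries, so the shares within classes rest on backgrounds that differ by genotype.

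**Figure D1:**
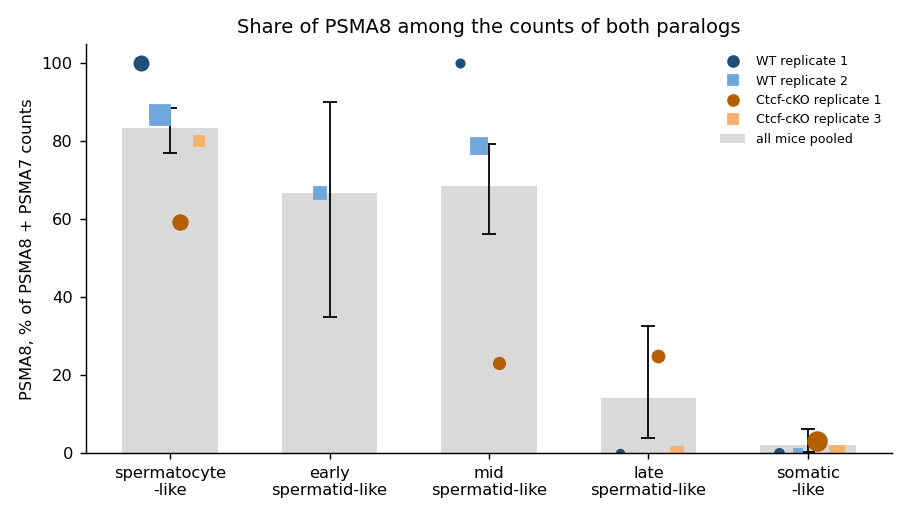
Share of PSMA8 among the counts of PSMA8 and PSMA7 together (y axis, percent) in each cell class (x axis). Bars are all mice pooled with exact 95% binomial intervals, and points are single mice, larger where there were more counts. The pooled share is 83.3% in the spermatocyte-like cells and 2.16% in the somatic-like cells.

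The genes with the pattern most like that of PSMA8 were BMS1 (r = 0.964), PIWIL1 (r = 0.947), TRIM11 (r = 0.942), ZBTB42 (r = 0.938) and SPPL2B (r = 0.927). Here r is Pearson's correlation of log2(CPM + 10) over 16 sums of 4 mice and 4 classes, among 5207 other genes, and the sums of a mouse share its library. PIWIL1, which binds piRNAs in pachytene spermatocytes, was itself among the markers used to name that class. The proteasome gene highest in this order was PSMD13, a lid subunit of the 19S cap, at rank 343 (r = 0.722). No other proteasome gene was thus close to PSMA8 in its pattern.

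Across the stages the makeup of the 48 proteasome genes changed more than their summed level. The sum was 5735, 6016, 7677 and 5375 CPM in the spermatocyte-like cells, 4919, 5049, 5303 and 4878 CPM in the mid and 5776, 5249, 5039 and 4935 CPM in the late spermatid-like cells. Every mouse was lower in the mid than in the spermatocyte-like cells, with no overlap of the ranges, whereas the ranges of the spermatocyte-like and late classes overlapped. The 7 beta subunits had 932, 814, 1755 and 827 CPM in the spermatocyte-like cells and 81.3, 130.2, 319 and 460.1 CPM in the late cells, with no overlap. The 14 PSMD genes fell from 2261, 1769, 2333 and 1103 CPM to 746, 781, 782 and 997 CPM, again without overlap. The 6 ATPases went from 1259, 1612, 1815 and 1626 CPM to 808, 834, 1037 and 934 CPM. The 7 alpha subunits went the other way, from 474, 544, 645 and 579 CPM to 894, 846, 826 and 795 CPM, and this rested on PSMA6, which rose from 109, 300.1, 336 and 221 CPM to 890.4, 840.3, 594 and 662 CPM. These sums are descriptions and were not tested.

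In the late spermatid-like cells most proteasome counts came from 6 genes. PSMF1, PSMC2, PSMD8, PSMA6, PSME3 and PSMC3, picked after their counts were seen, held 91.2%, 87.6%, 76.5% and 70.8% of all proteasome counts there. In the spermatocyte-like cells the same 6 held 28.6%, 51.1%, 39.8% and 44.1%. The markers of elongating spermatids summed to 10443.7, 86858, 79836.5 and 70895 CPM in these spermatocyte-like cells. They were lowest in WT replicate 1, as was the share of the 6 genes, and the part of spermatid RNA in these values was not tested. The other 42 genes together had 4095, 2939, 4625 and 3004 CPM in the spermatocyte-like cells, 1527, 1528, 2173 and 2036 CPM in the mid and 509.7, 651, 1185 and 1443 CPM in the late cells. The level of the 42 genes was lower at each step in every mouse, and in the late cells both Ctcf-cKO mice lay above both WT mice. Since the 6 were taken out after their counts were seen, the choice itself raises their late share and lowers the late level of the rest. The step from the mid to the late cells is thus a description. Only PSMA4, PSMG4, PSME2 and PSME2B had no count in the late cells of any mouse, and 44 of the 48 proteasome genes had one.

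**Figure D2:**
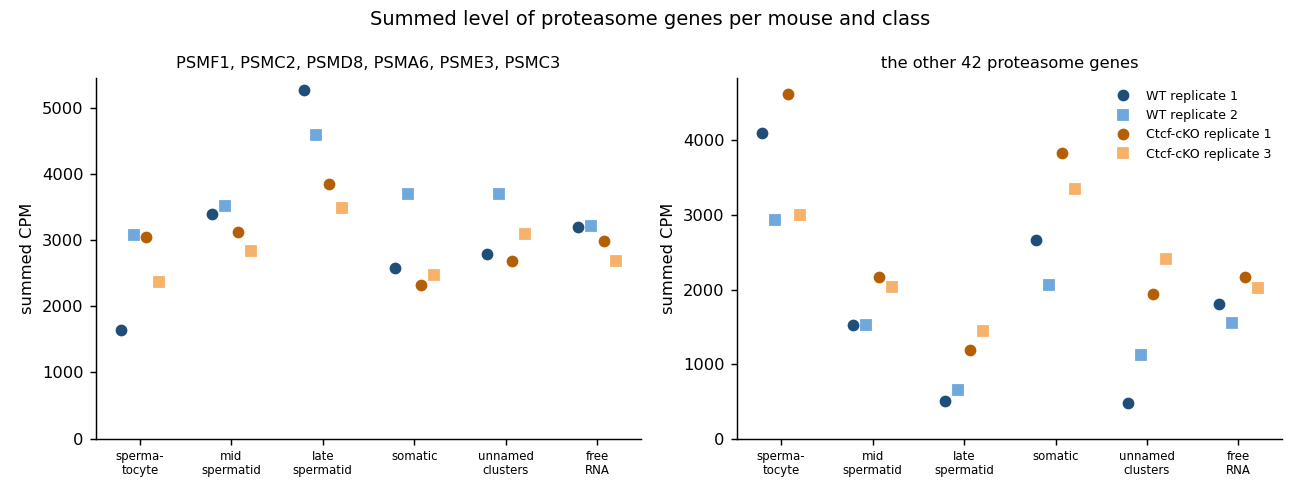
Summed level in CPM (y axes, linear, from 0) of 6 proteasome genes picked after their counts were seen (left) and of the other 42 (right) in each class and in the free RNA (x axes), 1 point per mouse. The other 42 genes have 509.7 to 1443 CPM in the late spermatid-like cells and 2939 to 4625 CPM in the spermatocyte-like cells.

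PSMF1, the inhibitor, was the only member that rose from the mid to the late spermatid-like cells by the test. Its level was 101, 731, 545 and 496 CPM in the spermatocyte-like, 986, 954, 747 and 310.0 CPM in the mid and 2750.0, 2267, 1552 and 1289.6 CPM in the late cells. The late cells of each mouse were higher than its mid cells, with a log2 fold change of 1.89 (SE 0.52, adjusted p = 0.020 by edgeR). It was 1 of 37 members tested, where 4.01% of all genes tested were called higher and 8.99% lower, and no member was called lower. The median log2 fold change of the 37 members was -0.90 against -0.26 over all genes, and 12 members had an unadjusted p under 0.05. The call of PSMF1 was lost without WT replicate 2, Ctcf-cKO replicate 1 or Ctcf-cKO replicate 3 (log2 fold changes 2.07, 2.07 and 1.74), and DESeq2 called 9 members in this comparison, 2 higher and 7 lower. Genes with a pattern most like PSMF1 over the 16 sums were SKP2 (r = 0.979), TEX37 (r = 0.974), SH3RF2 (r = 0.972), 4921507P07RIK (r = 0.971) and CSTL1 (r = 0.968), and the closest proteasome gene was PSMA6 (r = 0.882).

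From the spermatocyte-like to the mid spermatid-like cells 3 of 37 members tested were lower and none higher, where 4.67% of all genes were lower and 7.97% higher. Beside PSMA8 these were PSMD3, a lid subunit of the 19S cap, and PSMB1, a beta subunit of the core. PSMD3 went from 117, 104, 121 and 193 CPM to 0, 14.9, 8.30 and 0 CPM (log2 fold change -3.92, SE 0.91, adjusted p = 0.0090 by edgeR). PSMB1 went from 155, 142, 424 and 276 CPM to 3.16, 35.6, 47.1 and 51.7 CPM (log2 fold change -2.78, SE 0.64, adjusted p = 0.0090). The mice of the classes did not overlap for either gene. All 12 PSMD genes tested had a log2 fold change below 0, from -3.92 to -0.14, of which PSMD3 alone was called. The median over the 37 members was -0.95, against -0.18 over all genes. PSMD3 shares exon sequence with Gm12356 on the other strand, and whether the counting used the strand is not given in the sources used here. Without Ctcf-cKO replicate 1 none of the 3 was called, with log2 fold changes of -3.98 for PSMA8, -4.13 for PSMD3 and -2.75 for PSMB1.

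**Figure D3:**
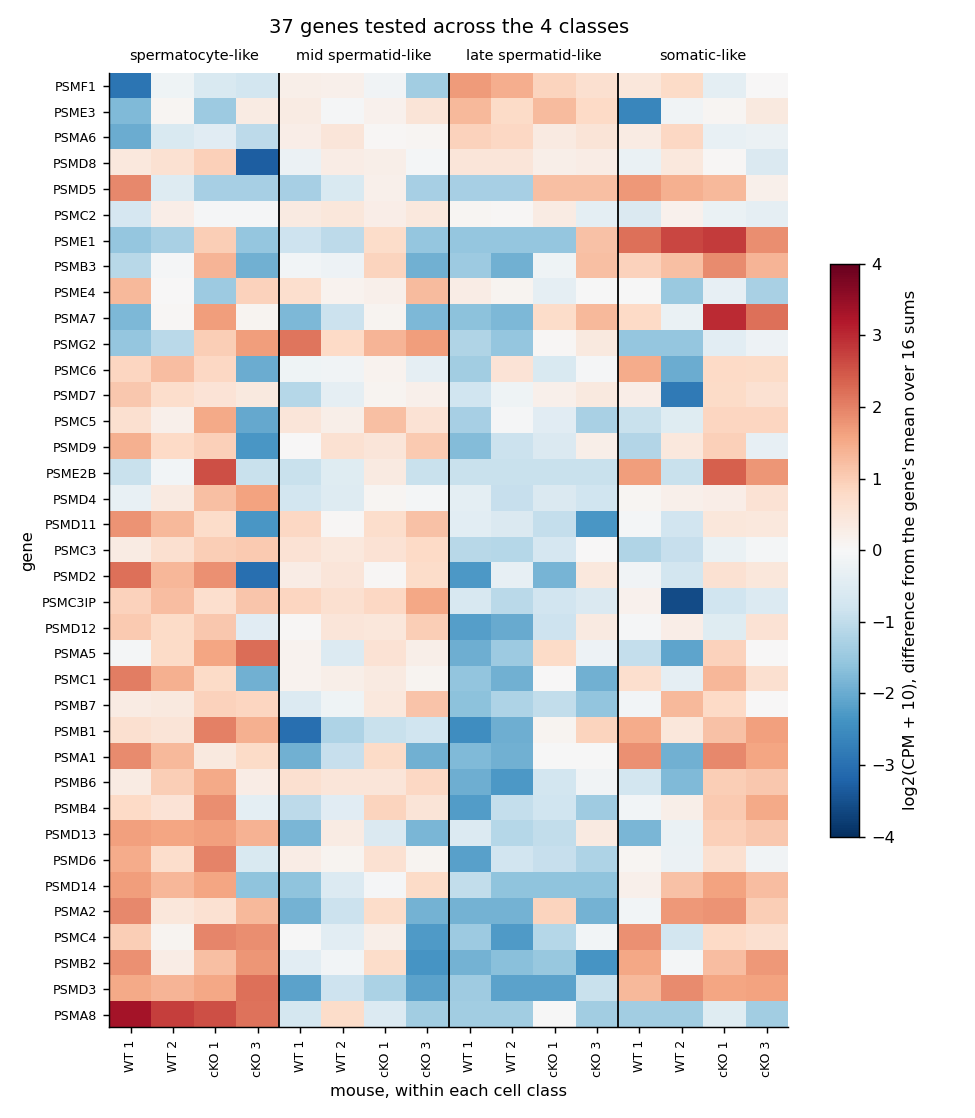
Map of the 37 members tested across the classes (rows), in each mouse within each class (columns). Color gives log2(CPM + 10) minus the gene's mean over the 16 sums, red above it and blue below. PSMF1, PSME3 and PSMA6 at the top are red in the late class, and PSMA8, PSMD3 and PSMB2 at the bottom are red in the spermatocyte-like class.

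On GRCm38 the genes that the comparisons turn on lie apart from each other. PSMA7 lies on chr2:180036374-180042433 (-), PSMF1 on chr2:151715812-151744186 (-) and PSMD5 on chr2:34849734-34874968 (-). PSMB1 lies on chr17:15475021-15499751 (-), PSMD3 on chr11:98682554-98695979 (+) and PSME1 on chr14:55578123-55581529 (+). The 49 members lie on 16 chromosomes, and 15 of them share exon sequence with another gene.

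Promoter sequences are shown for genes that stood on different sides of the changes above, namely PSMA6 and PSMC2 of the 6 genes that held most late counts and PSMA7, which had few counts in germ-like cells of WT mice. Each is the 200 bases right before a start given by RefSeq on GRCm38.p6, read 5′ to 3′ on the gene's strand, with CCAAT or its reverse complement in capitals. The table holds 2 starts each for PSMA6 and PSMC2, of which the first along the gene is shown, and the promoter of the other start holds no CCAAT in either gene. The PSMA6 promoter lies on chr12:55384022-55384221 (+), that of PSMC2 on chr5:21785075-21785274 (+) and that of PSMA7 on chr2:180042465-180042664 (-).
PSMA6: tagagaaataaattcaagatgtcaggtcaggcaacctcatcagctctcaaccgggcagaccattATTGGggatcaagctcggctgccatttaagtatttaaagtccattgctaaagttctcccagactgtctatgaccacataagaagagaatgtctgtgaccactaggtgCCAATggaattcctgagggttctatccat
PSMC2: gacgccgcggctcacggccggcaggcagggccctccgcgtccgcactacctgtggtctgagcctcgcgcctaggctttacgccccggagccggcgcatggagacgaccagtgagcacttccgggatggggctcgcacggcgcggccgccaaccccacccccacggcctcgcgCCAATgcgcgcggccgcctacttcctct
PSMA7: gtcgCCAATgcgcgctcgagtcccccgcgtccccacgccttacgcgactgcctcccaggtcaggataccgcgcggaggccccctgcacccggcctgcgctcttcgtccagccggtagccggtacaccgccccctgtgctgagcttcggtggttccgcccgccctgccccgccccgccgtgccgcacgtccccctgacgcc
CCAAT, the letters that factor NF-Y binds, began 136 and 29 bases before the start shown for PSMA6, 28 before that for PSMC2 and 196 before that for PSMA7. All promoters were searched on both strands over the 250 bases before the start, and 41 of the 49 members had an entry, with 44 promoters. CCAAT was found in 14 of the 44 (31.8%) and in 33.8% of all 32851 promoters in the table. TGACGTCA, the cAMP response element, was in none of the 44 and in 1.55% of all. TGACNNNGC, the antioxidant response element, which cannot overlap TGACGTCA, was in 5 of the 44 (11.4%), those of PSMB5, PSMB6, PSMC6, PSMD12 and PSMD9, and in 10.2% of all. The members' shares of CCAAT and TGACNNNGC were thus near those of all promoters, and a match is a description and not a site.

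Between the mean of the germ-like classes and the somatic-like class 6 of 37 members tested were lower in germ-like cells and none was higher, where 11.9% of all genes were lower and 1.27% higher. The 20 markers of elongating spermatids summed to 98510, 171243, 80076 and 102647 CPM in the somatic-like cells. In the late cells they summed to 264112, 256723, 213751 and 219608 CPM. The part of spermatid RNA in the somatic-like levels was not tested. The largest differences between germ-like and somatic-like cells were those of the PA28 genes. PSME1 had 125, 174, 190.2 and 95.2 CPM in the somatic-like cells and 0, 1.89, 47.1 and 0 CPM in the spermatocyte-like cells (log2 fold change -4.21, SE 0.90, adjusted p = 0.0019 by edgeR). In the mid cells it had 6.32, 4.14, 38.8 and 0 CPM and in the late 0, 0, 0 and 55.8 CPM, so each mouse was highest in its somatic-like cells. PSME2B, listed beside PSME2, had 50.0, 0, 87.8 and 53.3 CPM in the somatic-like cells and no count in the late cells (log2 fold change -4.28, adjusted p = 0.012). PSME2 and PSME2B are near-identical copies between which the counting could split reads, and PSME2 had 6 counts in the somatic-like cells and 3 in the spermatocyte-like cells, so both values are uncertain. PSME1 shares exon sequence with Emc9 on the other strand.

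The other 4 genes lower in germ-like cells were core subunits and a cap subunit. PSMD3 had 100.1, 154, 123 and 126 CPM in the somatic-like cells (log2 fold change -2.83, adjusted p = 0.0029), a range that overlapped that of the spermatocyte-like cells. PSMB1 (log2 fold change -1.84), PSMA7 (-2.61) and PSMB2 (-2.14) also passed, with adjusted p-values of 0.012, 0.021 and 0.024. The germ-like mean includes the mid and late classes. From the spermatocyte-like to the mid class the log2 fold changes of these genes were -2.78, -1.70 and -1.49. From the mid to the late class they were 1.15, 1.40 and -2.56. The difference between the somatic-like and the spermatocyte-like cells alone was not tested. The median log2 fold change of the 37 members was -0.42, against -0.02 over all genes. The somatic-like class was mostly cells of the Ctcf-cKO mice, and without WT replicate 1 or Ctcf-cKO replicate 1 the count of calls was 3. Of the other activators, PSME3 had 12.5, 116, 135 and 171 CPM in the somatic-like cells and 330.4, 225, 319 and 230.0 CPM in the late cells, where every mouse was higher. Its log2 fold change from the mid to the late class was 1.40 (adjusted p = 0.097).

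PSME4 (PA200) had counts in every mouse in each of the 4 classes tested. Its level was 326, 128, 40.3 and 248 CPM in the spermatocyte-like, 205, 139.9, 147 and 320.4 CPM in the mid, 159, 136, 95.7 and 125 CPM in the late and 125, 38.6, 99.5 and 45.7 CPM in the somatic-like cells. The mice of each class overlapped those of the next. The log2 fold changes were 0.34 from the spermatocyte-like to the mid class, -0.16 from the mid to the late class and 0.90 (SE 0.47, adjusted p = 0.24) between germ-like and somatic-like cells, and none passed.

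**Figure D4:**
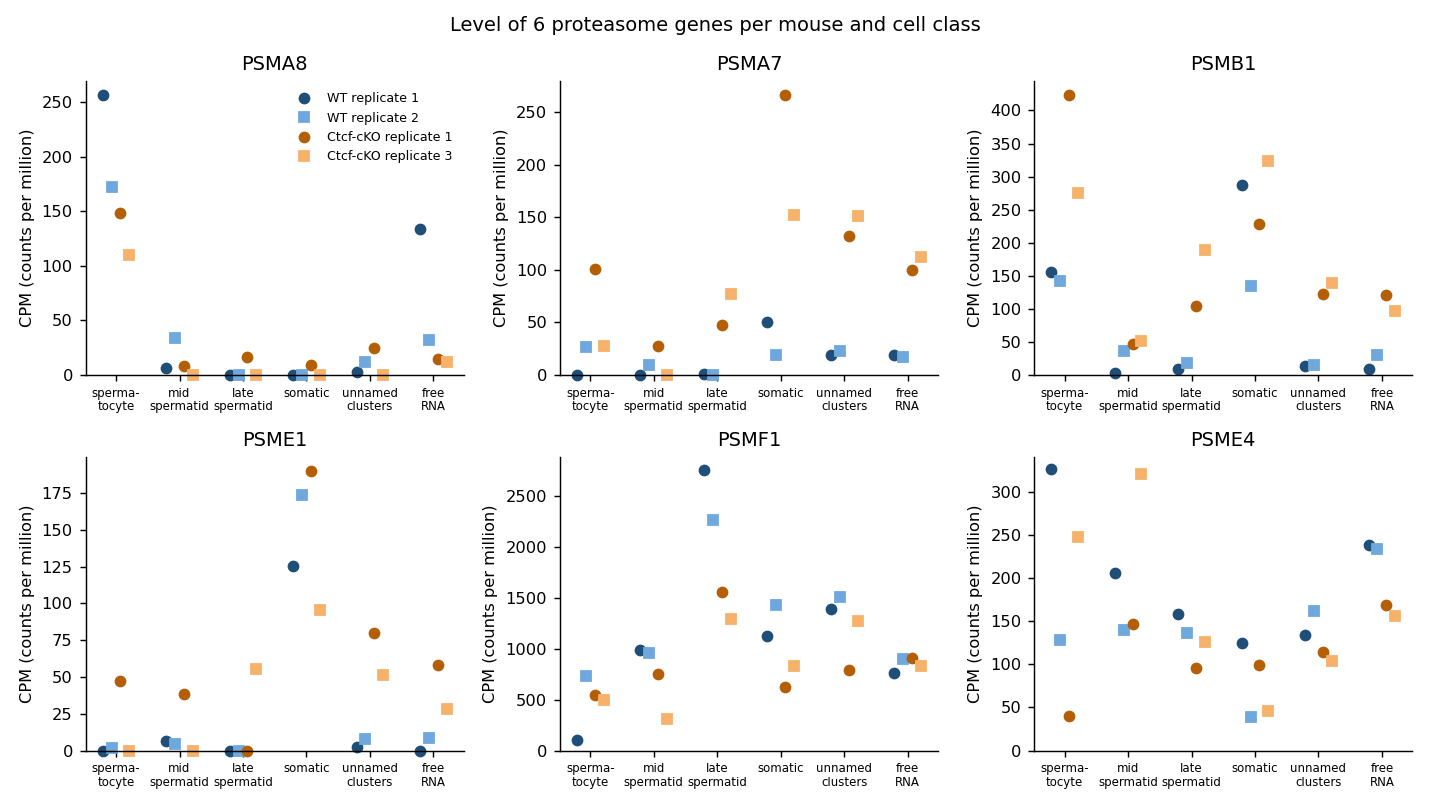
Level in CPM (y axes, linear, from 0, with a scale of its own for each gene) of PSMA8, PSMA7, PSMB1, PSME1, PSMF1 and PSME4 in each class and in the free RNA (x axes), 1 point per mouse. PSMA8 has 110.3 to 256 CPM in the spermatocyte-like cells and at most 33.9 CPM in the other named classes, and PSMF1 is highest in the late spermatid-like cells.

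The immunoproteasome subunits had few counts. PSMB8 had 5, 6, 17 and 1 counts in the somatic-like cells, of which 0, 6, 17 and 1 lay in the macrophage-like cells and 5 in Leydig-like cells of WT replicate 1. In the spermatocyte-like cells it had no count, in the mid 5 and in the late 4. PSMB9 had 17 counts in the somatic-like cells (0, 2, 6 and 9) and PSMB10 had 31 (2, 5, 11 and 13), and in the macrophage-like cells PSMB9 had 9 and PSMB10 had 13. Each of the 3 was thus highest in CPM in the macrophage-like cells among the classes, with 139.6 CPM for PSMB8, 52.4 CPM for PSMB9 and 75.6 CPM for PSMB10 over all mice. PSMB8 and PSMB10 passed the filter in few comparisons and were called in none, and PSMB9 passed it in none. Their constitutive partners are PSMB5, PSMB6 and PSMB7. PSMB6 had 194, 311, 457 and 193 CPM in the spermatocyte-like, 247, 221, 219 and 279 CPM in the mid and 32.3, 23.7, 87.8 and 139 CPM in the late cells, which were lower in every mouse (mid to late, log2 fold change -1.62, adjusted p = 0.054). PSMB7 had 54.4, 56.6, 87.4 and 82.7 CPM in the spermatocyte-like and 6.45, 11.8, 16 and 6.97 CPM in the late cells (mid to late -1.79, adjusted p = 0.15). PSMB5 had 16 counts in the spermatocyte-like and 2 in the late cells and passed the filter of no fit, as did 6 others (PSMA3, PSMA4, PSMB9, PSME2, PSMG3 and PSMG4).

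The assembly chaperones were low and were measured on few counts. Together PSMG1 to PSMG4 had 93.2, 92.5, 155 and 165 CPM in the spermatocyte-like and 7.74, 0, 59.8 and 27.9 CPM in the late cells. PSMG2 had 0, 3.78, 47.1 and 82.7 CPM in the spermatocyte-like cells and 117, 40.6, 63.7 and 82.7 CPM in the mid, followed by 2.58, 0, 19.9 and 27.9 CPM in the late (mid to late log2 fold change -3.15, adjusted p = 0.072). Their summed level was lower in the late than in the spermatocyte-like cells in every mouse. PSMC3IP, which is no subunit, had 218, 274, 182 and 248 CPM in the spermatocyte-like, 205, 176, 205 and 341 CPM in the mid and 67.1, 47.3, 59.8 and 69.7 CPM in the late cells (mid to late -1.42, adjusted p = 0.084), and it shares exon sequence with Mlx on the other strand.

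The study asked how the loss of CTCF changes the transcripts of germ cells, and the genotypes were compared within each class. With 2 mice against 2 an exact permutation test of a single gene cannot give a p below 0.333, so the tests below borrow the spread of all genes in edgeR.

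In the late spermatid-like cells 4 members were called, PSMB1, PSMA7 and PSMD5 higher and PSMF1 lower in Ctcf-cKO mice. Only PSMF1 passed the filter on low counts in both genotypes. The other 3 passed it through the Ctcf-cKO mice alone, where they were high, so that they had to differ to be tested, and their calls are given as a description. PSMB1 went from 9.03 and 17.8 CPM in WT to 104 and 188 CPM in Ctcf-cKO mice, from 7, 3, 26 and 27 counts (log2 fold change 3.55, SE 0.76, adjusted p = 0.0079 by edgeR). PSMA7 went from 1 and 0 counts to 12 and 11 (adjusted p = 0.0037), a ratio of pooled CPM of 55.1 with a counting interval from 8.94 to 2269. PSMD5, which helps to assemble the base of the cap, had no count in either WT mouse and 12 and 7 counts in the mutants (adjusted p = 0.0026), at least 15.2-fold higher against a floor of 3 counts over both WT mice. These counts came from few cells, since 8 of the 120 late cells had a count of PSMA7 and 6 had one of PSMD5. PSMF1 fell from 2750.0 and 2267 CPM in WT to 1552 and 1289.6 CPM in Ctcf-cKO mice (log2 fold change -0.86, SE 0.20, adjusted p = 0.014). The 20 markers of elongating spermatids summed to 264112 and 256723 CPM in WT and to 213751 and 219608 CPM in Ctcf-cKO mice. Of these markers 1 was higher in both Ctcf-cKO mice than in both WT mice. The part of the makeup of these cells in the fall of PSMF1 was not tested. The mice of the genotypes overlapped for none of the 4. The share of all genes whose mice were apart was determined in the spermatocyte-like cells only. Mice that were apart in other classes are thus a description.

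The 4 were among 16 members tested, and 7.87% of all 2618 genes tested were called higher and 1.6% lower. The median log2 fold change was 0.34 over the members that passed the filter, of which 4 passed through the Ctcf-cKO mice alone, and 0.0024 over all genes. With no filter on low counts only PSMB1 was called (log2 fold change 3.30), and with at least 10 counts in every sum only PSMF1 (-0.77). PSMB6 (log2 fold change 1.88, adjusted p = 0.11), PSMC3 (0.80), PSMD7 (0.92), PSMA6 (-0.51, adjusted p = 0.20), PSME4 (-0.49) and PSMD8 (-0.26) had the mice of the genotypes apart without passing the test. PSMB6 also passed the filter through the Ctcf-cKO mice alone. The calls depended on single libraries. Without WT replicate 1 only PSMB1 was called (log2 fold change 2.93), and without WT replicate 2 only PSMB1 (3.69) and PSMF1 (-1.20). Without Ctcf-cKO replicate 1 these same 2 were called (3.90 and -1.03), PSMA7 and PSMD5 no longer passing the filter on low counts, and without Ctcf-cKO replicate 3 none of the 4 was.

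Markers of other cell types also differed between the genotypes in the late cells. The markers of Leydig, Sertoli, macrophage, fibroblast, endothelial and red blood cells, 71 genes in all, summed to 2163 and 2000.2 CPM in the late spermatid-like cells of the WT mice and to 14713 and 9732 CPM in those of the Ctcf-cKO mice. Of the 71 genes 40 were higher in both Ctcf-cKO mice than in both WT mice, 41 had no count in either WT mouse and 12 had none in either mutant. PSMA7 and PSMB1 were among the members called lower in the mean of the germ-like classes than in the somatic-like cells. In the free RNA both were also higher in Ctcf-cKO libraries, as given next. With the free RNA of each library subtracted, 3 of the 4 calls were made, 2 higher and 1 lower. That setting takes off the free RNA profile per cell and cannot tell RNA of other cells from an effect of genotype. The part of RNA from other cells in the rise of PSMA7, PSMB1 and PSMD5 was not tested.

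In the free RNA 2 of 40 members tested were higher in the Ctcf-cKO libraries and none was lower, where 5.84% of all genes were higher and 0.584% lower. PSMA7 had 19.1 and 16.9 CPM in WT and 99.9 and 112 CPM in Ctcf-cKO libraries (log2 fold change 2.81, SE 0.57, adjusted p = 0.0023 by edgeR). PSMB1 had 9.53 and 30.5 CPM in WT and 121 and 96.2 CPM in Ctcf-cKO libraries (log2 fold change 2.30, SE 0.54, adjusted p = 0.0094). Both WT libraries lay below both Ctcf-cKO libraries for each gene. The same somatic and blood markers rose from 1553 and 2321 CPM to 12822 and 12861 CPM in the free RNA. PSME1 had 0 and 8.47 CPM in WT and 58.3 and 28.1 CPM in Ctcf-cKO libraries (log2 fold change 2.87, adjusted p = 0.056). It passed the filter on low counts through the Ctcf-cKO libraries alone, so its value is a description. The median log2 fold change of the members was 0.63, against 0.07 over all genes. Leaving out either Ctcf-cKO library left no call, and without WT replicate 2 there were 10.

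The cells of the unnamed clusters gave the same pair of genes. PSMB1 went from 13.7 and 15.4 CPM in WT to 122 and 139 CPM in Ctcf-cKO mice (log2 fold change 2.84, SE 0.82, adjusted p = 0.025 by edgeR), and PSMA7 had 19.2 and 23.1 CPM against 132 and 151 CPM (2.44, SE 0.77, adjusted p = 0.044). Both passed the filter on low counts through the Ctcf-cKO mice alone and were not called without it. They were 2 of 25 members tested, where 8.61% of all genes were called higher and 0.34% lower. The median log2 fold change of the members that passed the filter, 10 of them through the Ctcf-cKO mice alone, was 1.51, against 0.04 over all genes, and 20 of the 25 were above 0. The largest rise was that of PSME1 (3.38, adjusted p = 0.065), which also passed the filter through the Ctcf-cKO mice alone. PSMA6 (-0.96), PSMF1 (-0.79) and PSME4 (-0.72) were lower in both Ctcf-cKO mice, without passing the test. Somatic and blood markers in these cells summed to 1229 and 2372 CPM in WT and 22429 and 17131.5 CPM in Ctcf-cKO mice, and their part in the result was not tested. No member was called without either Ctcf-cKO mouse or with the free RNA subtracted, and 9 were called without WT replicate 2.

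In the spermatocyte-like cells no member was called among 30 tested (0% of all 3488 genes), and none had an unadjusted p under 0.05 by edgeR. The median log2 fold change was -0.06 over the members and -0.15 over all genes. In 12 of the 30 the mice of the genotypes were apart, 7 higher and 5 lower in Ctcf-cKO mice, where 16.9% of all genes tested were apart and higher and 23.9% apart and lower. A total of 12 of 30 is thus near the background. PSMA5 had 31.1 and 64.2 CPM in WT and 121 and 193 CPM in Ctcf-cKO mice (log2 fold change 1.54, SE 0.89). PSMC4 (1.48), PSMD4 (1.33), PSMB1 (1.27) and PSMB7 (0.61) were also higher in both Ctcf-cKO mice. PSMA8, at 256 and 172 CPM against 148 and 110.3 CPM, was lower in both (-0.67, SE 0.70, adjusted p = 0.99), as were PSMC1 (-1.63), PSMD11 (-1.44), PSMA1 (-1.20) and PSMD7 (-0.43). None of these values passed the test. Of these genes PSMA5 and PSMB7 passed the filter on low counts through the Ctcf-cKO mice alone, and PSMC1 and PSMA1 through the WT mice alone. PSMA5, PSMB7, PSMC1 and PSMA1 had to differ to be tested, so their values are a description. The somatic and blood markers in this class went from 279.7 and 1278 CPM in WT to 18447 and 11522 CPM in Ctcf-cKO mice.

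In the mid spermatid-like cells no member was called among 25 tested (0% of all 5042 genes), and 1 had an unadjusted p under 0.05 by edgeR. This was PSMB4, a beta subunit, with 66.4 and 104 CPM in WT and 282 and 217 CPM in Ctcf-cKO mice (log2 fold change 1.5, SE 0.52, adjusted p = 0.998). PSMB7 (1.23), PSMB1 (1.10), PSMD7 (0.91) and PSMA5 (0.82) were higher and PSMF1 (-0.83) and PSMA6 (-0.37) lower in both Ctcf-cKO mice, without passing the test. The median over the members was 0.32, against -0.05 over all genes. The somatic and blood markers in this class summed to 1195 and 1661 CPM in WT and to 10631 and 2604 CPM in Ctcf-cKO mice, and their part in these values was not tested. PSMF1 had 986 and 954 CPM in WT and 747 and 310.0 CPM in Ctcf-cKO mice, the same side as in the late cells. The mid cells of WT replicate 1 came mainly from a cluster other than that of the other mice.

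The difference of the genotype effect between the mid and late classes was tested itself. No member was called among 42 tested (0% of all 7493 genes), and none had an unadjusted p under 0.05 by edgeR, against 228 of all genes. For PSMF1 the log2 difference was -0.45 (SE 1.09), for PSMA7 3.25 (SE 2.36) and for PSME4 -1.15 (SE 1.15). The calls made in the late class alone were thus not shown to be particular to it.

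In the somatic-like cells, where Stra8-iCre is not active, no member was called among 29 tested (0% of all 3640 genes), and 3 had an unadjusted p under 0.05 by edgeR. These were PSMB6, with 87.6 and 38.6 CPM in WT and 313 and 335 CPM in Ctcf-cKO mice (log2 fold change 2.40, SE 0.61), PSMA7 (2.60, SE 0.78) and PSMB4 (1.41, SE 0.50), each with an adjusted p of 0.67. PSMD13 (2.97), PSMC5 (2.14) and PSME3 (1.53) were higher and PSMB8 (-1.50), PSMA6 (-0.75) and PSMF1 (-0.68) lower in both Ctcf-cKO mice. Of these genes PSMA7, PSMD13 and PSMC5 passed the filter on low counts through the Ctcf-cKO mice alone, and PSMB8 through the WT mice alone. They had to differ to be tested, so their values are a description. The median was 0.46 over the members that passed the filter and 0.14 over all genes. The class held 9 and 6 cells of the WT mice and 57 and 83 of the Ctcf-cKO mice, with no Leydig-like cell in WT replicate 2 and no macrophage-like cell in WT replicate 1. Without WT replicate 1 there were 4 calls and without WT replicate 2 there were 2.

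**Figure D5:**
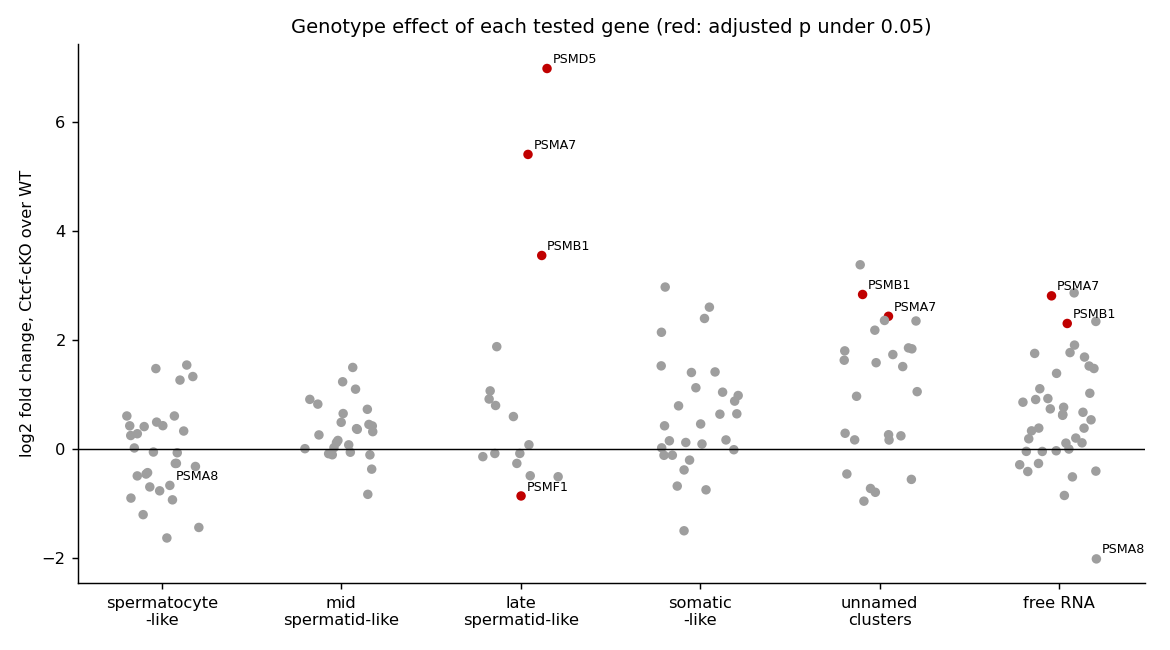
Log2 fold change of Ctcf-cKO over WT mice (y axis) of every member tested in each class and in the free RNA (x axis), 1 point per gene. Red marks an adjusted p under 0.05, which PSMD5, PSMA7, PSMB1 and PSMF1 reached in the late class and PSMB1 and PSMA7 in the unnamed clusters and in the free RNA.

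Genes that work with the proteasome changed in some of the same comparisons. A list of 25 partners was looked at, among them the small cap subunit SEM1, the unfoldase VCP and the core assembly factor POMP. In the late cells SEM1 (log2 fold change 3.15) and VCP (3.77) rose in Ctcf-cKO mice, with adjusted p-values of 0.012 and 0.014 by edgeR. Both were called among 9 partners tested, where 7.87% of all genes were called higher. The somatic and blood markers in these cells had 2163 and 2000.2 CPM in WT mice. In Ctcf-cKO mice they had 14713 and 9732 CPM, and their part in these calls was not tested. The genotype through which a gene passed the filter was determined for the members only. From the spermatocyte-like to the mid class POMP (-2.83) and VCP (-2.45) fell and DDI1 (1.63) rose among 20 tested. Over all genes 4.67% were lower and 7.97% higher at that step. From the mid to the late class SEM1 (-1.98) fell and UBQLNL (2.31) rose among 20 tested. There 8.99% of all genes were lower and 4.01% higher. Between germ-like and somatic-like cells NFE2L1, the factor that induces proteasome genes, was lower in germ-like cells (-2.73, adjusted p = 0.0093 by edgeR), as was VCP (-1.75). These were 2 of 20 tested, where 11.9% of all genes were lower. POMP rose in the free RNA of the Ctcf-cKO libraries (2.90, adjusted p = 0.0038 by edgeR), as 1 of 22 tested, where 5.84% of all genes were higher.

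Of 37 listed genes of the ubiquitin system 23 were tested across the classes. From the spermatocyte-like to the mid class 2 were higher and 2 lower, where 7.97% of all genes were higher and 4.67% lower. From the mid to the late class 1 was higher and 2 lower, where 4.01% of all genes were higher and 8.99% lower. Between germ-like and somatic-like cells 2 were lower, where 11.9% of all genes were. UBE2A, a ubiquitin-conjugating enzyme, rose from the spermatocyte-like to the mid class (log2 fold change 4.73, adjusted p = 0.0089 by edgeR) and fell from the mid to the late class (-4.53, adjusted p = 0.0075). KLHL10, the adaptor of a CUL3 ligase of spermatids, rose at the first step (2.03, adjusted p = 0.017), where CUL4A (-3.58) and RBX1 (-3.34) fell. At the second step UBE2J1 (1.42) rose and SKP1A (-1.76) fell. CUL4A (-2.42) and UBA1 (-1.75) were lower in germ-like than in somatic-like cells. By genotype none of 13 tested was called in the late cells, UBE2E3 (4.19) rose in the unnamed clusters of Ctcf-cKO mice and UBE2L3 (2.38) in their free RNA. UBE2E3 was 1 of 19 tested, where 8.61% of all genes were higher, and UBE2L3 1 of 26, where 5.84% were.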

How the data were processed

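Testes of 2 WT and 2 Ctcf-cKO mice were dissociated, single cells were barcoded in ddSEQ droplets and 3′ libraries were sequenced. Reads had been aligned to GRCm38, and the tables the authors deposited hold raw counts, 1 row per symbol and 1 column per barcode. The counting tool, its use of strand and how reads of a molecule were merged are not given in the sources used here. Since 84.4% to 90.3% of the values above 0 were 1 to 4, counts may hold several reads of a molecule. Symbols turned into dates held 0.195% to 0.245% of the counts.

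Cells were barcodes with 200 to 7000 genes, at most 10% mitochondrial counts and at least 3 times the median count of ranks 301 to 1000 of their library. They were normalized and clustered after the study's methods (Seurat 5.3.0, 2000 variable genes without the members, 15 components, resolution 0.9) with a Harmony batch correction written anew, and ordered by diffusion pseudotime with scanpy 1.11.5. A cluster was named from a marker list with at least 3 of its markers, a lead of 3 over the next list and no contrary leading genes. The block updates of the batch correction, the adjustment of the marker test and the lead were set after the clusters, but not the members' values, had been seen. Scrublet marked 54 doublets, which were kept.

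Counts were summed per mouse and class (at least 5 cells in each mouse) and tested with edgeR 4.0.16 (TMM, filterByExpr, quasi-likelihood F test, R 4.3.3) over all genes, with the mouse as a term between classes. Adjusted p-values are Benjamini-Hochberg values over all genes tested, with a threshold of 0.05. The tests were tried on simulated counts. Members and lists were chosen with earlier results of these data known. Genes named by rule were PSMA8, PSMA7, the activators, PSMF1, PSMB5 to PSMB10, PSMC3IP and every member called. With no call, these were up to 5 members that rose most and 5 that fell most with the mice of the genotypes apart. The contrast of spermatocyte-like with mid spermatid-like cells and the tests of the unnamed clusters were added after the data were seen. Alternatives covered the test, scaling, filters, clustering, cells, doublets, free RNA and each mouse. A result on another partner gene is not reported here.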

Additional observations from a re-analysis of the deposited data

Results flagged for a closer look

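PSMD7, a lid subunit of the 19S cap, stood on different sides in different classes. In the spermatocyte-like cells both Ctcf-cKO mice lay below both WT mice (log2 fold change -0.43), whereas in the mid spermatid-like (0.91), late spermatid-like (0.92) and somatic-like cells (1.40) both lay above both WT mice. None of the 4 values passed the test within its class, and that of the spermatocyte-like cells had an SE of 0.82. PSMD7 was flagged because its sides differed, and the share of all genes that do so was not determined. The difference between the spermatocyte-like and the other classes was not tested, and that between the mid and late classes did not pass. Its level was 139.9, 106, 94.1 and 82.7 CPM in the spermatocyte-like cells and 22.1, 45.5, 66.4 and 72.3 CPM in the mid cells (WT replicate 1, WT replicate 2, Ctcf-cKO replicate 1 and Ctcf-cKO replicate 3). In the spermatocyte-like cells of Ctcf-cKO replicate 3 a level of 82.7 CPM is 3 counts, the floor used here, so the side in that class is uncertain.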

How the results depend on the processing

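No named gene reversed its direction under any alternative. The balance of calls from the mid to the late class did turn, from 1 higher and 0 lower to 2 higher and 7 lower with DESeq2, 1 higher and 6 lower with library totals, and 0 higher and 1 lower with the free RNA subtracted or without Ctcf-cKO replicate 3. The calls in the late class and the unnamed clusters that rose in Ctcf-cKO mice depend on the filter on low counts, which the genes passed through those mice alone, except that PSMB1 in the late class was also called with no filter. The genotype comparisons of the spermatocyte-like and mid spermatid-like cells and the test of the difference between classes had 0 calls under every alternative that could be run. The other counts of members called moved, and the cause was not tested. In late spermatid-like cells, with 4 calls by genotype, there was 1 with no filter on low counts, 1 with at least 10 counts in every sum, 2 with members kept among the variable genes, 2 with doublets left out, 2 with all cells updated at once in the batch correction, and 0 with no batch correction, with as many barcodes as the study counts as cells, or with counts divided by 4 and rounded up. Leaving out a mouse gave 0 to 2. In the unnamed clusters, with 2 calls, DESeq2 gave 0, DESeq2's size factors 1, library totals 1, no filter 0, at least 10 counts 0, the free RNA subtracted 0, and leaving out a mouse 0 to 9. In the free RNA, with 2 calls, at least 10 counts gave 1 and leaving out a mouse 0 to 10. In somatic-like cells, with 0 calls, leaving out a mouse gave 0 to 4.

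From the spermatocyte-like to the mid class, with 3 calls, DESeq2 gave 8, at least 10 counts 1, at least 500 genes per cell 5, counts divided by 4 gave 5, and leaving out a mouse 0 to 3. From the mid to the late class, with 1 call, DESeq2 gave 9, its size factors 2, library totals 7, at least 10 counts 2, members kept among the variable genes 4, resolution 1.3 gave 3, at least 500 genes 3, counts divided by 4 gave 8, all cells updated at once 4, and leaving out a mouse 0 to 1. Between germ-like and somatic-like cells, with 6 calls, DESeq2 gave 11, at least 10 counts 1, resolution 0.5 gave 0, as many barcodes as the study counts 3, counts divided by 4 gave 3, and leaving out a mouse 3 to 6. A mouse left alone in its genotype was assumed to vary like the others. Settings that left a class with under 5 cells in a mouse gave no value for it, and the planned comparisons of the early class were not run for the same reason. No paired analysis was possible because the replicate numbers of the genotypes share only number 1. The division by 4, the batch correction with all cells updated at once and the naming with Bonferroni markers, which gave the same classes, were chosen after seeing the data.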
